A study of Mus musculus with 2 samples.

Results

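The genes described here encode proteins of the mitochondrial ribosome. Members were all genes whose symbol in the array's probe annotation starts with Mrpl or Mrps followed by a number, taken from probe sets annotated with a single gene, and they numbered 76 of the 18194 genes named this way. Of these, 47 have a symbol of the large subunit (Mrpl) and 29 a symbol of the small subunit (Mrps). RefSeq lists 78 protein-coding mouse genes with such symbols, and the other 2, Mrpl30 and Mrpl53, were reached only by probe sets annotated with a second gene as well.

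The mitochondrial ribosome translates the few proteins encoded by mitochondrial DNA, which are core subunits of the respiratory chain and the ATP synthase. Its ribosomal RNAs come from mitochondrial DNA, whereas its proteins are encoded in the nucleus, made in the cytosol and imported. Many of these proteins descend from bacterial ribosomal proteins, and others have no counterpart in the bacterial ribosome.

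Total RNA was measured on 1 Affymetrix mouse expression array of G9a-KO embryonic stem cells (ESCs) and 1 array of WT ESCs, to compare ESCs with and without the H3K9 methyltransferase G9a, encoded by Ehmt2. The WT cells are of the TT2 line, whose F1 embryo came from a cross of a C57BL/6 female with a CBA male, and the G9a-KO cells are TT2 cells without exons 26 and 27 of G9a, obtained by conditional targeting in cells whose other G9a allele was already mutant. Both samples carry a treatment text with 800 nM 4-hydroxytamoxifen (4OHT) for 48 h, which drives deletion of the floxed allele, followed by 48 h free of it. Nothing states separately if TT2 WT cells received 4OHT. The labels describe serum replacement medium with leukemia-inhibiting factor, whereas the methods of the study describe an established G9a-KO line grown on inactivated feeder fibroblasts, and the sources at hand do not settle which applied. The mutant is a cell line, and the number of clones is not given.

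Levels are log2 values above or below the 75th percentile of their own array, and a difference is the G9a-KO level minus the WT level of the same probe set, the brightest one of each gene. With 1 array per group the differences have no replicate check, and no p-value or error could be computed. The 18 hybridization spike-in probe sets, whose RNA is added in equal amounts, differed by -0.16 to 0.21 between the arrays. The targeted gene Ehmt2 had a level of 0.51 in G9a-KO ESCs against 2.05 in WT ESCs on its brighter probe set, a difference of -1.54 (2.90-fold lower). Its other probe set lay close to the array medians of -2.13 in G9a-KO and -2.24 in WT, with -2.07 in G9a-KO ESCs and -2.27 in WT ESCs, and no source used here places either one inside or outside of the deleted exons.

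All 10 ESC markers checked, among them Pou5f1 and Nanog, lay above the median of both arrays, with a median difference of -0.29. Of these, 4 were over 1.3-fold lower in G9a-KO ESCs and 1 was higher, beside 22.0% and 19.6% of all genes above the median of both arrays. The differences were -1.29 for Lin28a, -0.79 for Zfp42, -0.61 for Utf1 and -0.46 for Pou5f1, and 0.61 for Dppa5a. Nanog differed by 0.21. All 15 primitive endoderm markers were past 2-fold higher in G9a-KO ESCs, where 4.61% of all genes were. Their median level was 2.13 in G9a-KO ESCs and -1.85 in WT ESCs. The widest were Cubn, Col4a1, Col4a2 and Dab2, with differences of 5.82, 4.95, 4.87 and 4.37. Among the endoderm transcription factors, Gata6 had 1.27 in G9a-KO ESCs and -1.85 in WT ESCs, and Sox17 had 0.96 in G9a-KO ESCs and -2.15 in WT ESCs. The part of these endoderm genes in the differences of the mitochondrial ribosomal protein genes was not tested. Of 10 fibroblast markers, Col1a2 alone lay above the median of both arrays, with -1.36 in G9a-KO ESCs and -2.19 in WT ESCs. The other chain of that collagen, Col1a1, had -2.41 in G9a-KO ESCs and -2.65 in WT ESCs, below the medians, and Pdgfrb differed by -0.27. In all, 2 of the 10 were over 1.3-fold higher and 1 lower, beside 17.4% and 17.2% of all genes. Among them were Lum with 0.98 and Fap with -0.42, both below the medians. In bulk RNA, less RNA of a gene per cell and a smaller share of cells with that RNA cannot be told apart.

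The brightest probe sets of all 76 members lay above the median of both arrays. Most members had similar levels in G9a-KO and WT ESCs, and those that differed by more than 1.3-fold, the fold that the study used for this pair, were mostly lower in G9a-KO ESCs. In all, 15 members were over 1.3-fold lower, or 19.7%, where 17.2% of all 18194 genes were. Over 1.3-fold higher were 4 members, or 5.26%, where 17.4% of all genes were. None was past 2-fold in either direction, against 4.61% of all genes higher and 3.76% lower, and 4.91% higher and 4.37% lower of the 11566 genes above the median of both arrays. The lower share of members is near that of all genes, and the higher share is below it. Among those 11566 genes, 19.6% were over 1.3-fold higher and 22.0% over 1.3-fold lower. The split between higher and lower members depends on the scaling of the arrays. With each array centred on its own median, which lowers every difference by 0.10, 1 member was over 1.3-fold higher and 22 were lower, beside 13.0% and 22.3% of all genes. Past 2-fold were then 0 members higher and 2 lower, beside 3.85% and 4.85% of all genes.

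The median difference of the members was -0.10, with quartiles of -0.33 and 0.07, and 49 of 76 lay below 0. All genes had a median of 0.04, and those above the median of both arrays 0.01. The robust standard deviation across the members was 0.29, against 0.45 across the genes above the medians, which were dimmer (median WT level 0.59 against 3.13). A narrow spread was not particular to the members. It was 0.10 across 50 cytosolic ribosomal protein genes and 0.19 across 91 genes of the respiratory chain and ATP synthase. The medians of the subunits lay side by side. The 47 Mrpl genes had a median of -0.09, with 3 over 1.3-fold higher and 8 lower, and ranged between -0.88 and 0.48. The 29 Mrps genes had a median of -0.10, with 1 higher and 7 lower, and ranged between -0.99 and 0.50. The large subunit median minus the small subunit median was 0.01, and its sign changed with the choice of scaling and probe set.

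**Figure D1:**
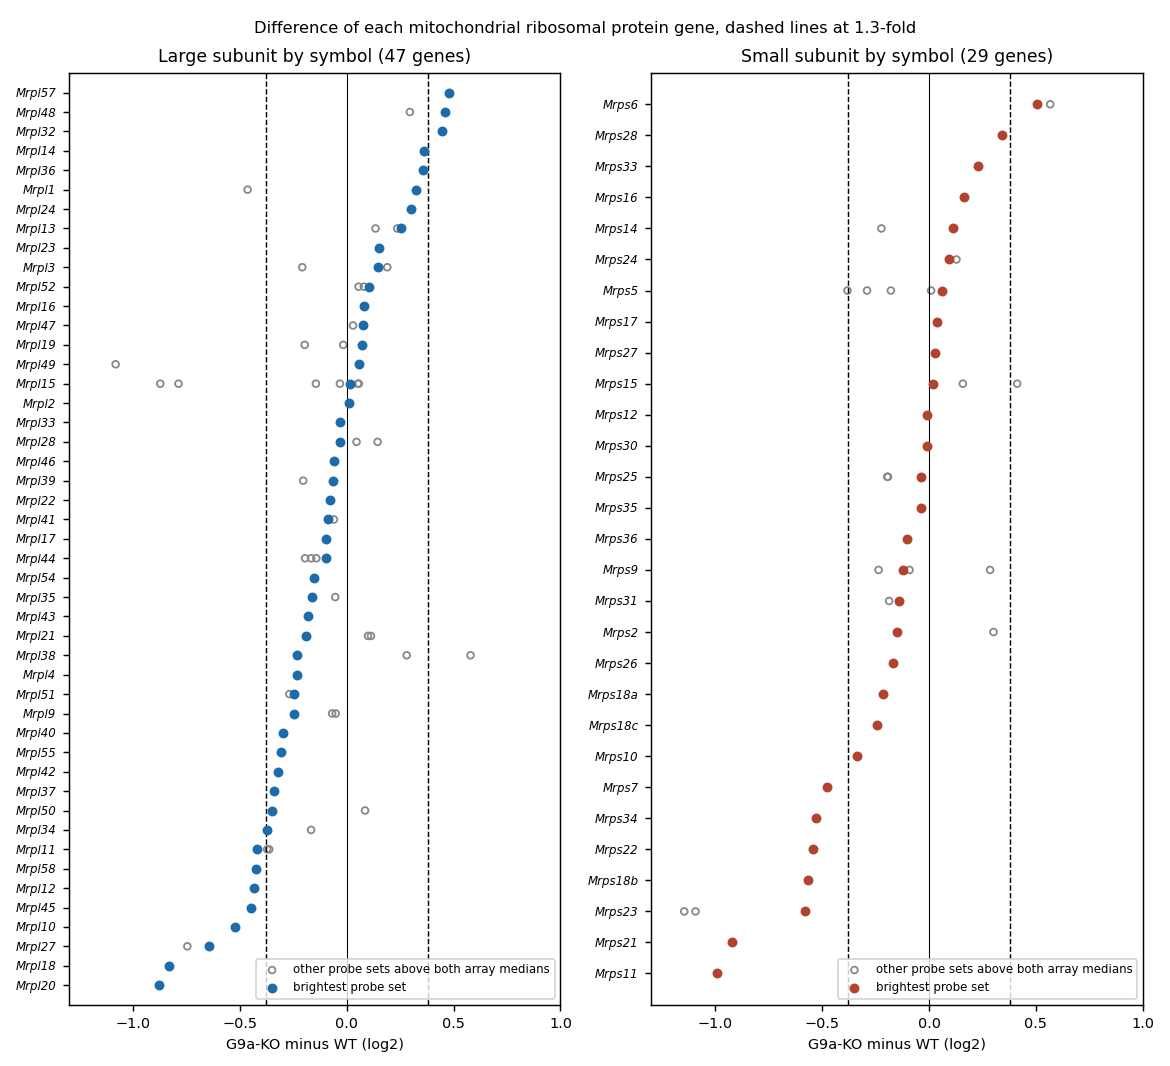
G9a-KO minus WT difference (log2, x axis) of each of the 47 Mrpl genes (left, blue) and 29 Mrps genes (right, red). Filled points are the brightest probe set of a gene, open points its other probe sets above the median of both arrays, and dashed lines mark 1.3-fold; 8 Mrpl and 7 Mrps genes lie left of the lower line.

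The start regions of the 4 members farthest below 0 and of 3 of the 4 members over 1.3-fold higher are shown here, so that the genes can be seen beside their sequence. The other higher member, Mrpl48, has 4 annotated starts and is not shown. Sequences are from RefSeq promoters on GRCm38.p6, written 5′ to 3′ on the strand of the gene, and end just before the annotated start. Capitals mark matches of a binding motif on either strand, which are descriptions of letters and not sites of binding. The first 4 genes were lower in G9a-KO ESCs.
Mrps11: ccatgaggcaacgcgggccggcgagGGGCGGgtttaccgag
Mrps21: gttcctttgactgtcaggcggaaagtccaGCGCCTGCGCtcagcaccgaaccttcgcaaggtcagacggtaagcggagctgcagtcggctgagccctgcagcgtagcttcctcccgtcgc
Mrpl20: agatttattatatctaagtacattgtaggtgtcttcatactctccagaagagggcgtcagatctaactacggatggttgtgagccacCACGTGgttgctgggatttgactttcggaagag
Mrpl18: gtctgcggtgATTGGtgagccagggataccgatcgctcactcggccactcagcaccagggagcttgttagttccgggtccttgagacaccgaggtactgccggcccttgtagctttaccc
The next 3 genes were higher in G9a-KO ESCs.
Mrps6: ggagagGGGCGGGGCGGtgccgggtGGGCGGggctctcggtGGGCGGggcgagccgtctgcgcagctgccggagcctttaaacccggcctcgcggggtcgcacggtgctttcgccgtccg
Mrpl57: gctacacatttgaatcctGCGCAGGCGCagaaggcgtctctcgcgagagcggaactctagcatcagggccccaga
Mrpl32: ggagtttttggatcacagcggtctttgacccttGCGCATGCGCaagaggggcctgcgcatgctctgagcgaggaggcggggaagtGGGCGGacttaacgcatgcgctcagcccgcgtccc

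Mrps11 (chr7:78783090-78783130, plus strand) and Mrps6 (chr16:92058216-92058335, plus strand) show the SP1 motif GGGCGG, which occurs 4 times in the Mrps6 stretch. Mrps21 (chr3:95871515-95871634, minus strand) and Mrpl57 (chr14:57826164-57826238, plus strand) show the motif of NRF1, a nuclear factor of mitochondrial genes. Mrpl32 (chr13:14613038-14613157, minus strand) shows both. Mrpl20 (chr4:155802758-155802877, plus strand) shows the E-box CACGTG, which MYC and MAX bind, and Mrpl18 (chr17:12916092-12916211, minus strand) shows CCAAT on its opposite strand. The pieces of Mrps11 and Mrpl57 are short because each stops before the start of a neighbour that runs the other way. SP1 and NRF1 motifs stand before genes that were lower as well as before genes that were higher.

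The protein encoded by Mrps11 is the homologue of bacterial S11, on the platform of the small subunit. Mrps11 had a level of 1.01 in G9a-KO ESCs and 2.01 in WT ESCs, a difference of -0.99 (1.99-fold lower), and was the member with the widest difference. A second Mrps11 probe set lay below both array medians, at -3.68 in G9a-KO ESCs and -4.22 in WT ESCs. Mrps21, the homologue of S21, had 1.12 in G9a-KO ESCs and 2.05 in WT ESCs, a difference of -0.92. These were the small subunit genes nearest to 2-fold.

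Mrps23, Mrps22 and Mrps34 encode small subunit proteins without a bacterial counterpart. Mrps23 had 2.30 in G9a-KO ESCs and 2.88 in WT ESCs, a difference of -0.58, and its other probe sets differed by -1.09 and -1.15, past 2-fold. Mrps22 had 2.65 in G9a-KO ESCs and 3.20 in WT ESCs, a difference of -0.54. Mutations of MRPS22 in humans cause disorders of mitochondrial translation, and so do those of MRPS34. Mrps34 had 2.93 in G9a-KO ESCs and 3.46 in WT ESCs, a difference of -0.53. A further probe set annotated with Nme3 and Mrps34 together differed by -0.28, in the same direction. The homologue of bacterial S7, in the head of the small subunit, is encoded by Mrps7. Mrps7 had 2.64 in G9a-KO ESCs and 3.11 in WT ESCs, a difference of -0.48.

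The paralogues of bacterial S18 have separate places in the mitochondrial ribosome. Mrps18b, in the small subunit, had 2.56 in G9a-KO ESCs and 3.13 in WT ESCs, a difference of -0.56. Mrps18c, also in the small subunit, had 3.60 in G9a-KO ESCs and 3.85 in WT ESCs, a difference of -0.24. The protein of Mrps18a sits in the large subunit in spite of its symbol. Mrps18a had 2.67 in G9a-KO ESCs and 2.88 in WT ESCs, a difference of -0.22. All 3 were lower in G9a-KO ESCs and 1 of them passed 1.3-fold. Mrps30, whose protein is in the large subunit as well, had 3.30 in G9a-KO ESCs and 3.31 in WT ESCs. The protein of Mrps36 is not part of the mitochondrial ribosome but of the α-ketoglutarate dehydrogenase complex, and the gene had 2.40 in G9a-KO ESCs and 2.51 in WT ESCs, with 3 pseudogenes in RefSeq that could share its probes. Placing these proteins where they belong gave 49 large subunit genes with a median of -0.09 and 26 small subunit genes with a median of -0.08.

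On the large subunit, Mrpl20 encodes the homologue of bacterial L20, a protein that binds the ribosomal RNA early in assembly. Mrpl20 had 2.70 in G9a-KO ESCs and 3.58 in WT ESCs, a difference of -0.88 (1.84-fold lower), the widest of the Mrpl genes. Mrpl18, the homologue of L18, had 3.31 in G9a-KO ESCs and 4.14 in WT ESCs, a difference of -0.83. The human protein binds 5S ribosomal RNA on its way into mitochondria. Mrpl27 encodes the homologue of L27, which reaches toward the peptidyl transferase centre. Mrpl27 had 3.25 in G9a-KO ESCs and 3.89 in WT ESCs, a difference of -0.65, and its second probe set differed by -0.75. A pseudogene of Mrpl27 in RefSeq could share its probes.

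The L10, L11 and L12 homologues form the stalk and its base, which recruit translation factors to the ribosome. Mrpl10 had 2.18 in G9a-KO ESCs and 2.71 in WT ESCs, a difference of -0.52. The level of Mrpl11 was 3.27 in G9a-KO ESCs and 3.69 in WT ESCs, a difference of -0.42, and its other probe sets above the medians differed by -0.37 and -0.36. Mrpl12, whose human protein also binds the mitochondrial RNA polymerase, had 3.91 in G9a-KO ESCs and 4.35 in WT ESCs, a difference of -0.43. All 3 of these genes were over 1.3-fold lower, also under each other scaling of the arrays, and they were grouped after their values were seen. Mrpl45 encodes a protein at the exit of the peptide tunnel, near the inner membrane. Its level was 3.81 in G9a-KO ESCs and 4.26 in WT ESCs, a difference of -0.45. Mrpl58, also known as Ict1, encodes a peptidyl-tRNA hydrolase built into the large subunit that can rescue stalled ribosomes, and had 2.99 in G9a-KO ESCs and 3.41 in WT ESCs, a difference of -0.43. Just short of 1.3-fold was Mrpl34, the homologue of L34, with a difference of -0.37.

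**Figure D2:**
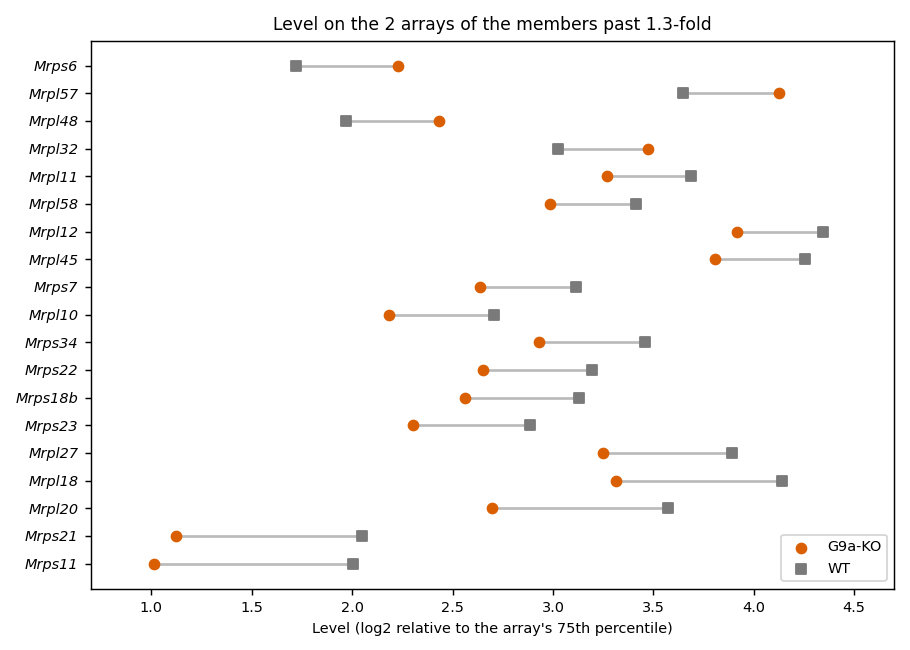
Level (log2, from each array's own 75th percentile, x axis) in G9a-KO ESCs (orange circles) and WT ESCs (grey squares) of the 19 members past 1.3-fold, 1 row per gene from the highest difference at the top to the lowest at the bottom. The 4 upper genes are higher in G9a-KO ESCs and the 15 below are lower; levels of different genes come from different probes and are not comparable.

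Over 1.3-fold higher in G9a-KO ESCs were 1 small and 3 large subunit genes. Mrps6, the homologue of S6, had 2.23 in G9a-KO ESCs and 1.72 in WT ESCs, a difference of 0.50, and its second probe set differed by 0.57. The gene overlaps Slc5a3, a transporter gene within it, whose own difference was 1.04, and the array cannot be taken to separate transcripts of shared exons. Mrpl57, also known as Mrp63, encodes a large subunit protein without a bacterial counterpart. Its level was 4.12 in G9a-KO ESCs and 3.65 in WT ESCs, a difference of 0.48. Mrpl48, also without a bacterial counterpart, had 2.43 in G9a-KO ESCs and 1.97 in WT ESCs, a difference of 0.46, with 0.30 on its second probe set and a pseudogene in RefSeq. Mrpl32, the homologue of L32, is trimmed after import by the m-AAA protease in yeast and mouse before it joins the large subunit. Mrpl32 had 3.47 in G9a-KO ESCs and 3.03 in WT ESCs, a difference of 0.45. With each array centred on its median, Mrps6 was the member that stayed over 1.3-fold higher. Next below the threshold were Mrpl14 and Mrpl36, each with a difference of 0.36, and Mrps28 with 0.34.

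The members were also split by whether their protein has a homologue among bacterial ribosomal proteins. The 44 genes with such a homologue had a median difference of -0.02, with 2 over 1.3-fold higher and 9 lower, or 4.55% and 20.5%. The 28 without one had a median of -0.15, with 2 higher and 5 lower, or 7.14% and 17.9%, and 22 of them lay below 0. Of genes above the median of both arrays, 19.6% were higher and 22.0% lower. The other 4 members, the S18 paralogues Mrps18a and Mrps18b, Mrpl55 and Mrps36, were not classed and enter neither group. All 4 lay below 0, with a median of -0.26. On the large subunit the medians were -0.15 for the 19 genes without a homologue and -0.03 for the 28 with one. On the small subunit they were -0.14 for 9 genes without and 0.0047 for 16 with. The genes with a homologue held the 5 members farthest below 0: Mrps11, Mrps21, Mrpl20, Mrpl18 and Mrpl27.

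Several probe sets of a gene are the only repeat measurement that 2 arrays hold, and they share the hybridization. Of the 76 members, 34 had 1 probe set and 42 had more, up to 8 for Mrpl15. In 32 members more than 1 probe set lay above the median of both arrays, and in 19 of these they all differed in 1 direction. In the other 13 they ran both ways, but in 0 of them past 1.3-fold both ways. Mrpl49, encoding a large subunit protein without a bacterial counterpart, had 2.74 in G9a-KO ESCs and 2.68 in WT ESCs on its brightest probe set, but 1.80 in G9a-KO ESCs and 2.88 in WT ESCs on its other one, a difference of -1.08. The probe sets of Mrpl38 differed by -0.23, 0.28 and 0.58. For Mrpl15, the homologue of L15, the brightest probe set differed by 0.02, whereas dimmer ones differed by -0.87 and -0.79. Such genes have no settled direction in these data.

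Of the 15 members over 1.3-fold lower, 7 lay on chromosome 11. This chromosome carried 11 members, with a median difference of -0.43, and the 7 were Mrpl27, Mrps23, Mrpl10, Mrps7, Mrpl45, Mrpl12 and Mrpl58. The others on this chromosome were Mrpl55 with -0.31, Mrpl38 with -0.23, Mrpl22 with -0.08 and Mrps24, encoding the homologue of S3, with 0.09. The 993 other chromosome 11 genes above both array medians had a median of -0.04, with 23.9% over 1.3-fold lower. The 65 members on other chromosomes had a median of -0.06, with 4 over 1.3-fold higher and 8 lower. Chromosome 17 carried 8 members with a median of -0.28 and 3 over 1.3-fold lower, Mrpl18, Mrps18b and Mrps34, beside 23.9% of the other genes there above both medians. The grouping by chromosome was noticed after the values were seen and was not tested.

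**Figure D3:**
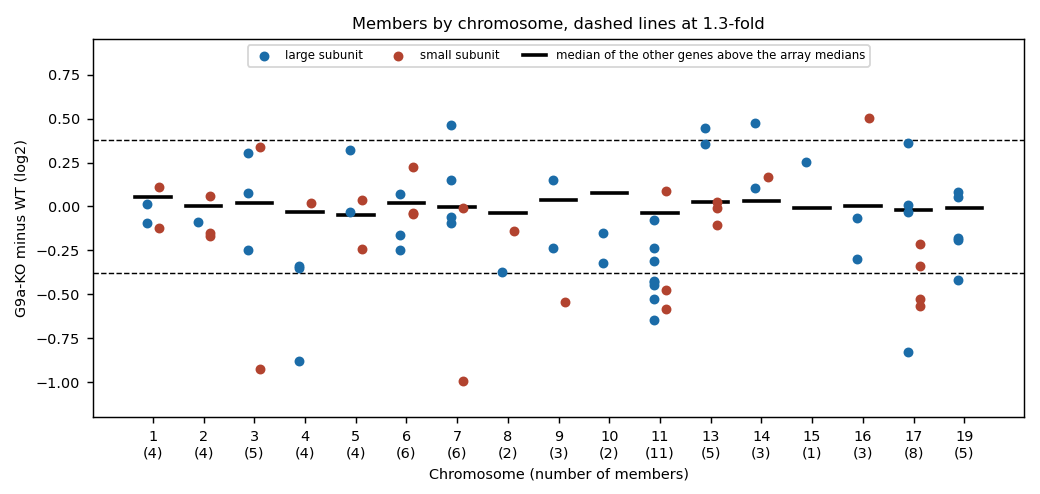
G9a-KO minus WT difference (log2, y axis) of the members by chromosome (x axis, number of members in brackets), with large subunit genes in blue and small subunit genes in red. Black bars are the median of the other genes above the median of both arrays on that chromosome and dashed lines mark 1.3-fold; 7 of 11 members on chromosome 11 lie below the lower line.

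Many nuclear genes of mitochondrial proteins share a start region with a gene that runs the other way. Of the members, 23 had such a protein-coding partner with a start within 1000 bases, and in 21 both genes of the pair lay above the median of both arrays. The member and its partner differed in the same direction in 14 of these 21. In 5 the member was over 1.3-fold lower, and the partner was over 1.3-fold lower in 1 of them, within 1.3-fold in 4 and higher in 0. Over all 21 pairs, 6 partners were over 1.3-fold lower and 3 higher. Of all genes above the median of both arrays, 22.0% were lower and 19.6% higher. If pairs move together more than other genes was not tested. Mrps11 and Mrpl46 are such a pair, with starts 42 bases apart and promoter windows that overlap over the same 141 bases of DNA, and count from both sides. The difference of Mrps11 was -0.99, whereas Mrpl46, encoding a large subunit protein, had 3.17 in G9a-KO ESCs and 3.23 in WT ESCs, a difference of -0.06. Mrpl18 with -0.83 lies opposite the chaperonin gene Tcp1, which had 5.35 in G9a-KO ESCs and 5.15 in WT ESCs, a difference of 0.20. Mrpl27 with -0.65 lies opposite the nuclease gene Eme1, which had 1.02 in G9a-KO ESCs and 1.91 in WT ESCs, a difference of -0.89. Mrpl57 with 0.48 lies opposite Ska3, a gene of the mitotic spindle, with -0.29, and Mrpl32 with 0.45 opposite the proteasome gene Psma2 with 0.16.

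**Figure D4:**
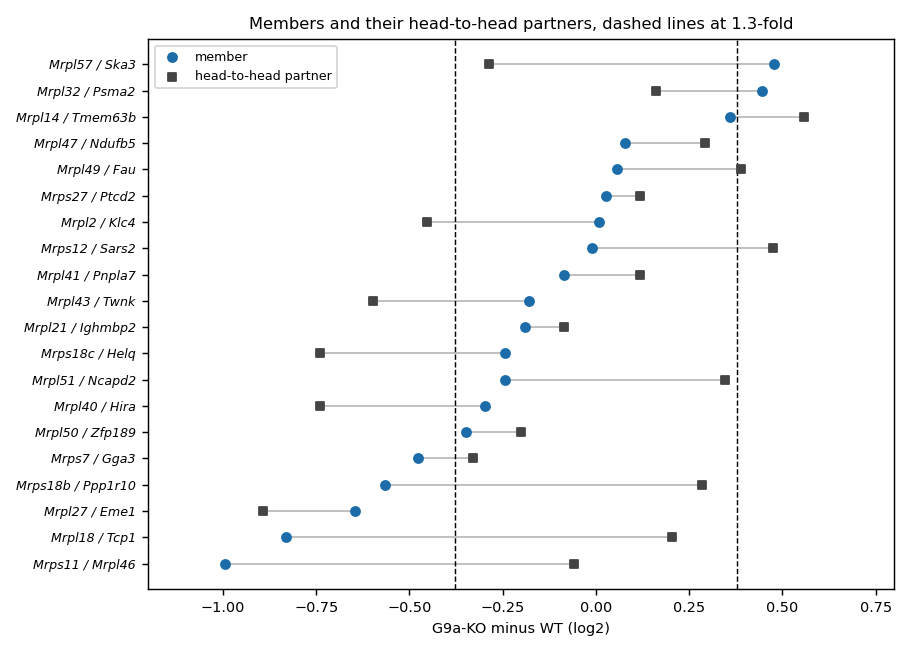
G9a-KO minus WT difference (log2, x axis) of members (blue circles) and of the protein-coding gene that starts within 1000 bases in the other direction (dark squares), 1 row per pair with both genes above the median of both arrays, and dashed lines at 1.3-fold. Mrps11 and Mrpl46 share 1 row; the Mrpl27 and Eme1 row is the one with both genes beyond the lower line.

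Promoter windows of 300 bases, 250 before and 50 after the start, were at hand for 67 members, with 73 starts. Motifs were searched on both strands as exact letters. The ETS motif CCGGAAG, which GABP binds, was in 34.2% of the members' windows, against 17.2% of the windows of genes above the medians and 8.86% of all 32851 windows. The YY1 motif AANATGGCG was in 15.1% of the members' windows, against 5.01% of those of genes above the medians and 2.38% of all. For NRF1 the share was 16.4%, against 9.94% and 4.60%, and for the motif of ZNF143 and THAP11 it was 6.85%, against 4.04% and 1.98%. The E-box was in 9.59%, against 10.1% and 7.15%. These shares count windows, so a member with several starts counts more than once. The E-box was in 7 windows of 5 members, as Mrpl2 had it at 3 starts. The SP1 motif was in 53.4%, against 62.9% and 35.7%, CCAAT in 39.7%, against 37.6% and 37.4%, and TATAAA in 6.85%, against 6.87% and 13.6%. The windows of members held a median of 21 CpG dinucleotides, against 20 in those of genes above the medians and 7 in all.

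The differences of members with and without each motif are given as a description. The counts below are of members past 1.3-fold. Of all genes above the median of both arrays, with or without a motif, 22.0% were over 1.3-fold lower and 19.6% higher. A link between a motif and the differences was not tested. The 25 members with the ETS motif had a median of -0.18, with 7 over 1.3-fold lower and 2 higher, and the 42 without it -0.08, with 7 lower and 2 higher. The 12 with the NRF1 motif had a median of -0.11, with 3 lower and 2 higher, and the 55 without it -0.09, with 11 lower and 2 higher. The 34 with the SP1 motif had a median of -0.03, with 5 lower and 4 higher, and the 33 without it -0.15, with 9 lower and 0 higher. The 5 with the E-box had a median of -0.24, with 1 lower, and the 62 without it -0.10, with 13 lower and 4 higher. For YY1, the 11 members with the motif had a median of -0.22, with 3 lower and 0 higher, and the 56 without it -0.09, with 11 lower and 4 higher. The motif of ZNF143 and THAP11 was in 5 members, with a median of -0.35 and 1 lower, against -0.09 in the 62 without it, with 13 lower and 4 higher. For CCAAT, 26 members had a median of -0.08, with 3 lower and 1 higher, and 41 without it -0.15, with 11 lower and 3 higher. TATAAA was in 5 members, with a median of 0.08 and 1 higher, against -0.13 in the 62 without it, with 14 lower and 3 higher.

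Genes of transcription factors and coactivators linked to the members, not all of which bind such motifs, were also measured. The list held 16 genes, of which 15 had a probe set. Their median difference was 0.06, with 2 over 1.3-fold higher and 4 lower, or 13.3% and 26.7%, beside 19.6% and 22.0% of genes above the medians, and it was at or below 0 under the other scalings. Myc had -2.08 in G9a-KO ESCs, near the array median, and 0.33 in WT ESCs, a difference of -2.41. Mycn, the paralogue of Myc in ESCs, had 2.04 in G9a-KO ESCs and 3.16 in WT ESCs, a difference of -1.13, with -0.61 and -0.01 on its other probe sets. Gabpb1, a subunit of GABP, differed by 1.15 on its brightest probe set and -0.37 on another. Ppargc1b, a coactivator of mitochondrial genes, had 0.15 in G9a-KO ESCs and -0.90 in WT ESCs, a difference of 1.05. The NRF1 gene Nrf1 differed by -0.24 and Gabpa by 0.20, both within 1.3-fold.

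Genes of other proteins of the mitochondrial ribosome and of its upkeep had lower medians than the members. Of 7 listed ribosome genes without an Mrp symbol, 4 were measured (Ict1 and Mrp63 are older names of the members Mrpl58 and Mrpl57), with a median of -0.35. Of the 4, 2 were over 1.3-fold lower and 0 higher, beside 22.0% and 19.6% of genes above the median of both arrays. Chchd1 had 3.78 in G9a-KO ESCs and 4.27 in WT ESCs, a difference of -0.49, and Ptcd3 had 2.64 in G9a-KO ESCs and 3.06 in WT ESCs, a difference of -0.43. Gadd45gip1 differed by -0.28, and Dap3, which encodes a GTP-binding small subunit protein, by 0.26.

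For the assembly and RNA modification of the mitochondrial ribosome, 27 of 28 listed genes were measured, with a median difference of -0.35. Over 1.3-fold lower were 12 and higher 4, or 44.4% and 14.8%, where 22.0% of the genes above the median of both arrays were lower and 19.6% higher. Past 2-fold lower were 5, or 18.5%, beside 4.37% of those genes. Mettl17, encoding a methyltransferase-like protein needed for small subunit assembly, had -0.43 in G9a-KO ESCs and 1.23 in WT ESCs, a difference of -1.67. Mrm3, a methyltransferase of the large ribosomal RNA, had 0.55 in G9a-KO ESCs and 1.65 in WT ESCs, a difference of -1.10. Trub2, a pseudouridine synthase of mitochondria, had 0.55 in G9a-KO ESCs and 1.64 in WT ESCs, a difference of -1.09, with -0.95 and -0.59 on its other probe sets. Rsad1 had -2.54 in G9a-KO ESCs, below the array median, and -0.76 in WT ESCs, a difference of -1.78. Its place in the list is uncertain, as is that of Metap1d, a mitochondrial methionine aminopeptidase, with -1.06, and without both the median of 25 genes was -0.34, with 10 lower, 3 of them past 2-fold, and 4 higher. Mpv17l2, an assembly factor of the large subunit, had 1.23 in G9a-KO ESCs and 0.72 in WT ESCs, a difference of 0.51.

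Mitochondrial translation factors had 14 of 16 genes measured, a median of -0.17, 4 over 1.3-fold lower, or 28.6%, and 0 higher, beside the same 22.0% and 19.6%. Pdf, the peptide deformylase, had 1.05 in G9a-KO ESCs and 1.68 in WT ESCs, a difference of -0.63. Mtif3, an initiation factor, differed by -0.61, Slirp, the partner of the RNA-binding protein Lrpprc, by -0.54, and Tufm, the elongation factor, by -0.33. Guf1 was the fourth past 1.3-fold, at -0.40, but lay below both array medians. Of 13 genes of mitochondrial transcription and the nucleoid, 12 were measured, with a median of -0.20, 4 lower and 1 higher, or 33.3% and 8.33%. Tefm, the transcription elongation factor, had 1.88 in G9a-KO ESCs and 2.63 in WT ESCs, a difference of -0.75. Twnk, the DNA helicase, differed by -0.60 and Mterf2 by -0.57, whereas Polg, the catalytic subunit of the mitochondrial DNA polymerase, differed by 0.55.

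The median of the members differed in sign from that of the nuclear genes of the respiratory chain and ATP synthase. These nuclear genes encode none of the subunits that the mitochondrial ribosome itself makes. The 91 genes of the respiratory chain and ATP synthase had a median difference of 0.21, of which 15 were over 1.3-fold higher and 3 lower. They were taken by symbol, and the rule for the 44 complex I genes also matches Ndufaf assembly factors. Assembly factors of the mitochondrial ribosome, in contrast, were kept apart from the members. The higher share, 16.5%, is near the 17.4% of all genes and below the 19.6% of genes above the medians, and the lower share was 3.30%, beside 17.2% and 22.0%. This median stayed above 0 under each scaling. The members' median stayed below 0 under each. The 50 cytosolic ribosomal protein genes measured had a median of 0.07, with 4 higher and 4 lower, or 8% each, and this median turned to -0.04 with each array centred on its median. No test of these differences between groups can be had from 1 array per condition.

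**Figure D5:**
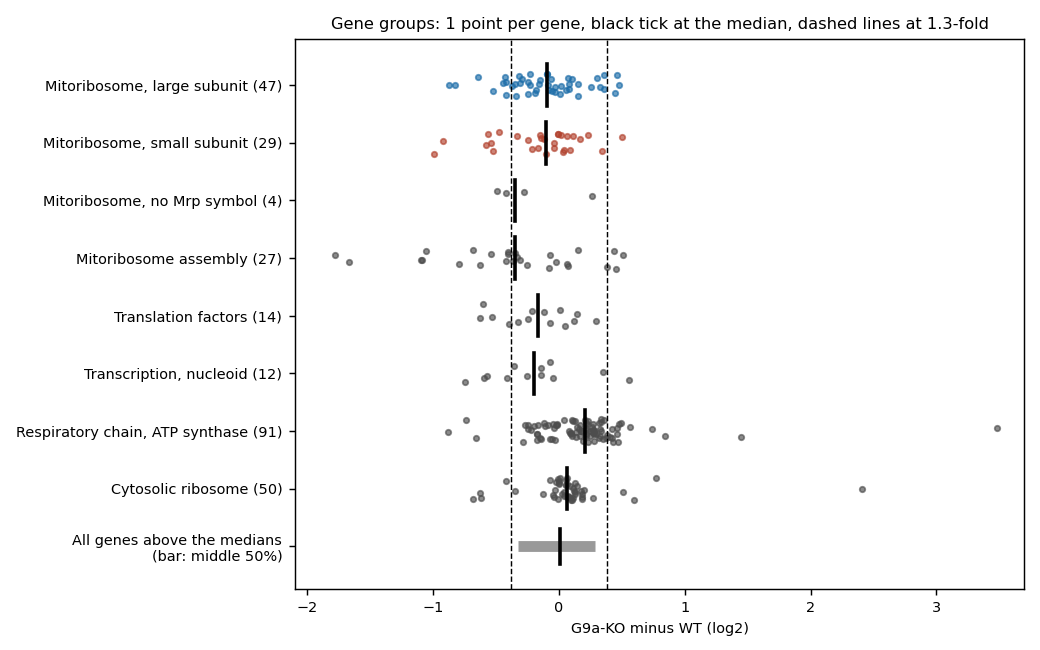
G9a-KO minus WT difference (log2, x axis) by gene group, 1 point per gene with the number of genes in brackets, black ticks at the medians and dashed lines at 1.3-fold. The grey bar spans the quartiles of all genes above the median of both arrays; large and small subunit medians lie at -0.09 and -0.10, the assembly genes at -0.35 and the respiratory chain genes at 0.21.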

How the data were processed

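RNA of G9a-KO and WT ESCs was hybridized to 1 array each (200 ng of total RNA per the labels). The deposited values are log2 levels of 45101 probe sets, which the authors made by RMA (background correction, quantile normalization and summary of probes per probe set) in R 3.2.1. The medians of the deposited columns were 5.18 for G9a-KO and 5.13 for WT. Probes are summarized after normalization, so these medians need not be equal and do not show if the arrays were normalized together. No raw intensities were used, so the scanner background cannot be checked, and RMA compresses differences of dim probe sets. The 75th percentile of each array was subtracted, after the methods of the study. Of the probe sets, 34958 carry 1 gene symbol and 932 several. Those with several symbols and 9211 unnamed ones entered no gene value. For each gene the probe set with the highest mean of both arrays was used (Python 3.11.15, pandas 2.3.3, numpy 2.4.6), and steps were tested on simulated data. All 76 members matched RefSeq by gene ID.

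Named were Ehmt2, members past 1.3-fold, the S18 paralogues, members placed elsewhere than their symbol says, and up to 4 genes of each other list with the widest difference above the median of at least 1 array. Outside this rule, members near the threshold, with discordant probe sets, on chromosome 11 or with a head-to-head partner were chosen after their values were seen. So were Pou5f1, Nanog, Gata6, Sox17, Col1a1, Lum, Fap, Metap1d, Mpv17l2, Guf1, Nrf1 and Gabpa. Members and lists were chosen with earlier results of these data known. Alternatives were 4 other scalings, filters on dim or unspecific probe sets, and other rules for several probe sets.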

Additional observations from a re-analysis of the deposited data

Results flagged for a closer look

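A probe set annotated with both Ccdc142 and Mrpl53 was not used for any gene value. It had 2.45 in G9a-KO ESCs and 2.88 in WT ESCs, a difference of -0.43 (1.35-fold lower). Of genes above the median of both arrays, 22.0% were over 1.3-fold lower. The difference is outside the range of the hybridization spike-in probe sets, but that range holds no spread between cultures or RNA preparations. Which of the genes it measured cannot be told apart. A probe set annotated with Gm6238 and Mrpl30 had 3.99 in G9a-KO ESCs and 3.84 in WT ESCs, a difference of 0.16, within the spike-in range.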

How the results depend on the processing

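Of 78 values under other settings, 62 stayed the same (within 1 SD of the spike-in probe sets, 0.11, for medians, or within 1.5 times for counts), 11 moved and 5 changed sign. The members over 1.3-fold lower numbered between 8 and 22, and their median difference lay between -0.20 and -0.06. Leaving out the chromosome 11 members, an alternative chosen after seeing the data, gave 8 lower. Past 2-fold lower was 1 member with the deposited values unshifted, 2 with median centring, 1 after quantile normalization, 2 with the probe set of largest absolute difference and 2 counting any probe set. Over 1.3-fold higher were 1 with median centring, 2 with the mean over probe sets, 7 with the largest absolute difference and 8 counting any probe set. The largest absolute difference moved the large subunit median to -0.20. The large minus small subunit median, 0.01, became -0.0165 after quantile normalization, -0.0024 after lowess correction, -0.0385 with the mean over probe sets, -0.16 with the largest absolute difference and -0.0148 by place in the ribosome. The cause of these shifts was not tested. The median over all genes was 0.04 as reported and -0.07 with median centring, which shifts every gene alike. The members' median minus that of all genes was -0.13 as reported, -0.11 after quantile normalization, -0.08 after lowess correction, -0.24 with the largest absolute difference and -0.09 without the chromosome 11 members. In 11 members with small differences the sign depended on the scaling. No paired analysis was possible because each group has 1 array. The number of arrays limits the precision.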
